A study of Mus musculus with 21 samples.

Results

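Serpinh1 and the genes around it in collagen production were followed in the hippocampus of mice that had been separated from the dam early in life. The set holds 9 of the 55487 genes counted. It was chosen by name: the collagen chaperone Serpinh1, the prolyl 4-hydroxylase subunits P4hb, P4ha1 and P4ha2, the fibrillar collagen chains Col1a1, Col1a2 and Col3a1, and the basement membrane chains Col4a1 and Col4a2. Serpinh1 was selected because it differed between separated and control mice in these same libraries. Its difference between those groups is therefore a description and carries no test, and the same holds for the other members. All 9 passed the filter on low counts that 18146 genes passed.

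Poly-A RNA of 21 male, wild type C57BL/6 mice was sequenced, with 1 hippocampus library per mouse. In the maternal separation (MS) group (n = 9), whole nests were taken from the dam for 4 hours a day from postnatal day (PND) 10 to PND 17, and most of the nesting material was removed from the home cage over those days. The standard rearing (SR) group (n = 12) stayed with the dam. All mice were taken at 10 weeks of age. Mice are named A1 to C3 in MS and D1 to G3 in SR, after the 7 sets of 3 consecutive animal numbers in the labels, which do not say which mice shared a nest. Mice of a nest share a dam and a cage, so p-values over single mice treat as separate what the assignment of whole nests did not separate.

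Collagen chains are made in the endoplasmic reticulum (ER). There the prolyl 4-hydroxylases, tetramers of catalytic subunits (P4ha1 or P4ha2) and the protein disulfide isomerase P4hb, hydroxylate prolines, which lets the triple helix stay folded at body temperature. Serpinh1, also called Hsp47, binds the folded procollagen helix in the ER and is released in the Golgi. Type I and type III collagen form fibrils, made in brain mainly by fibroblasts of the meninges, of large vessels and of the choroid plexus stroma, while type IV collagen (Col4a1 and Col4a2 in a joint helix) is the network of every vessel's basement membrane.

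The bases before the start sites of Serpinh1, P4hb and P4ha1 are shown because these 3 members had the group differences that were largest beside their standard errors. The sequences are from RefSeq (GRCm38.p6), which held 8 of the 9 members by symbol, the other being Col1a1. Each is the 250 bases upstream of the start, 5′ to 3′ on the gene's own strand, and none overlaps an annotated exon. Capitals mark 3 motifs on either strand. They are the CCAAT box, the GC box GGGCGG, and a part of the ER stress response element that reads CCACG.
Serpinh1, chr7:99353240-99353489, minus strand: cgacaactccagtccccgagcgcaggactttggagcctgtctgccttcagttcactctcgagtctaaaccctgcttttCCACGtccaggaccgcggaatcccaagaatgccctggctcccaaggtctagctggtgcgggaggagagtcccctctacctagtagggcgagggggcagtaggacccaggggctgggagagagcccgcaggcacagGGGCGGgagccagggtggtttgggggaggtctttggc
P4hb, chr11:120573254-120573503, minus strand: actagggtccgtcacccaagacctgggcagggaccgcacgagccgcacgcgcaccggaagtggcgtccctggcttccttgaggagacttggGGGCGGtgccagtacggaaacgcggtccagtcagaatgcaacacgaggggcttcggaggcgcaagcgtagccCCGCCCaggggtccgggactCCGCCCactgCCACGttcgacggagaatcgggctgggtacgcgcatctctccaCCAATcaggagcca
P4ha1, chr10:59323046-59323295, plus strand: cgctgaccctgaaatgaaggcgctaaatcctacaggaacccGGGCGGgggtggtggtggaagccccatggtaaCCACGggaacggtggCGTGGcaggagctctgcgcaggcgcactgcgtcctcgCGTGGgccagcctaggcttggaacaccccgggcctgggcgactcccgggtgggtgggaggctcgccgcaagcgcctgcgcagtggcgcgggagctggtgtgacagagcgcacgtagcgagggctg
The Serpinh1 window held 1 CCACG, which starts 172 bases before the start site, and no CCAAT. In the P4hb window, CCACG begins 57 bases and CCAAT 14 bases before the start. The P4ha1 window held CCACG 3 times, the P4hb window the GC box 3 times.

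Short motifs of this kind are common, so the counts were set beside all 32817 RefSeq promoter windows of the same length. CCACG was in 7 of the 8 member windows, and in 28.3% of all windows. GGGCGG was in 6 of the 8 and in 32.7% of all, and CCAAT in 4 of the 8 (P4hb, Col1a2, Col4a1 and Col4a2) and in 33.8% of all. The full ER stress response element, CCAAT and CCACG with 9 bases between them, was in 0 of the 8 and 0.113% of all. Of the core letters of the heat shock element, GAANNTTC was in 0 of the 8 (6.69% of all) and TTCNNGAA in 1, P4ha2 (7.16% of all). The windows of Col4a1 and Col4a2 share no base but are close neighbours, so they are not wholly separate cases. These genes start 21 bases apart on opposite strands of chromosome 8. All 250 bases of each window are annotated exon of the other gene. The windows of Col1a2 and P4ha2 lie within their own annotated genes, and 127 bases of the Col1a2 window are annotated exon.

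The libraries held 17276810 to 30449055 counts. An MS library, A2, stood apart, with a score of 27.1 on the first principal component where the other 20 lay between -12.2 and 11.9. Its summed CPM (a gene's counts after every library is scaled to the same normalised total) of 9 granule and pyramidal neuron markers was 180.3, below the 495 to 1057 of the others. Its sum of 8 striatal markers was 2023, against at most 699.6 elsewhere. A2 was left out, as the study left out 1 unnamed library, so comparisons are of 8 MS and 12 SR mice, and values with A2 are given where it moved them. The choroid plexus, which lies against the hippocampus, was present to very different extents: the sum of its 10 markers was 169 to 6420.3 CPM in MS mice (median 5219) and 174 to 7057 CPM in SR mice (median 1456). All 10 markers were higher in MS on average (median log2 fold change 0.88), though edgeR and DESeq2 called 0 and 0 of 10 had an unadjusted p under 0.05. None of the 10 was at 0 in every library. Counts from tissue do not separate more cells of a type from more RNA per cell.

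The 9 mRNAs differed widely in level. As CPM per kilobase of merged exon in SR mice, P4hb was the most abundant at 31.1 ± 1.71 (SD, n = 12), and Col3a1 the least at 0.325 ± 0.129. Between them came Col4a2 (17.5 ± 1.87), P4ha1 (14.3 ± 1.33), Col4a1 (11.4 ± 1.11), Serpinh1 (8.42 ± 1.74), P4ha2 (3.07 ± 0.314), Col1a1 (1.93 ± 0.554) and Col1a2 (1.49 ± 0.580). Neighbours in this order overlapped in range over the mice except P4hb over Col4a2, Serpinh1 over P4ha2 and Col1a2 over Col3a1. Within single mice the order was tighter. It held in 12 of 12 SR mice for all 8 neighbour pairs other than Col4a2 over P4ha1 (10 of 12) and Col1a1 over Col1a2 (11 of 12). The basement membrane chains were above the fibrillar chains in every SR mouse on this scale. Merged exon length counts exons that may not be used in hippocampus, so the scale is approximate.

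Serpinh1 (ENSMUSG00000070436, chr7:99345376-99353239 in GRCm38, minus strand) was higher in MS mice on average. Its level was 19.4 CPM in the lowest MS mouse, 29.0 at the median and 35.4 in the highest. In SR mice the same values were 14.6, 21.5 and 27.4 CPM. The groups overlapped, with 5 of 8 MS mice above the highest SR mouse and 5 of 12 SR mice below the lowest MS mouse. The means were 28.4 ± 4.67 CPM (SD, n = 8) in MS and 20.6 ± 4.24 CPM (SD, n = 12) in SR, a 1.38-fold difference and a log2 fold change of 0.47 (SE 0.12). A single MS mouse, C2, was below the rest of its group at 19.4 CPM, and the next MS value was 26.1 CPM. By Dixon's ratio of that gap to the group's range, C2 was not an outlier (0.417, critical value 0.526). Without C2 the log2 fold change was 0.53 (SE 0.11), the highest with any single mouse left out, and the lowest was 0.41, without A3. With A2, which had 26.1 CPM, the log2 fold change was 0.45.

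**Figure D1:**
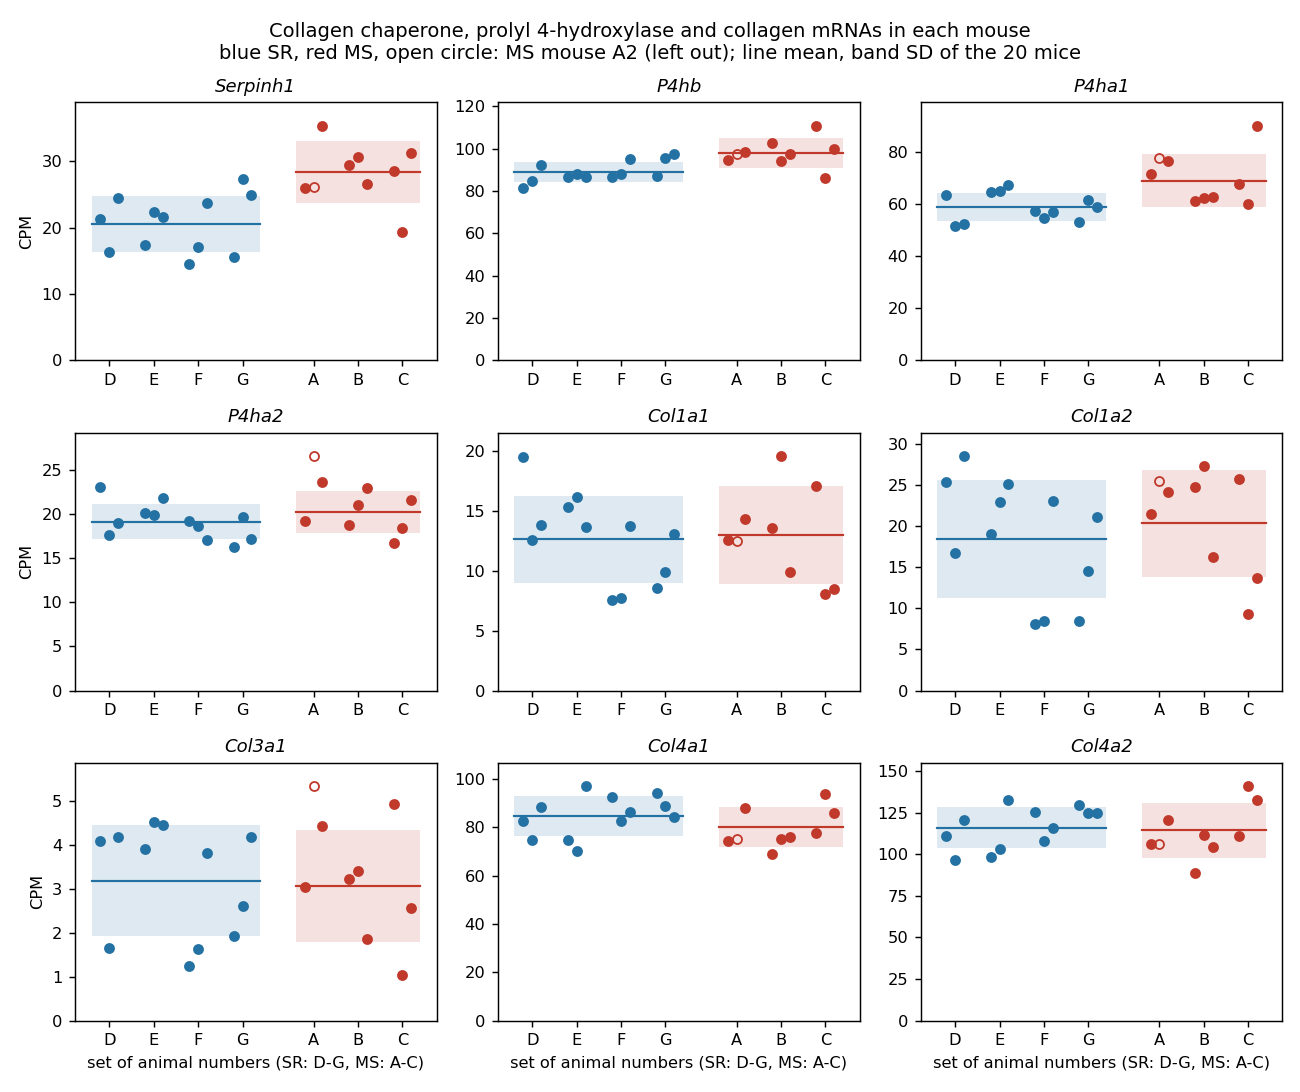
CPM of each member (y axis, from 0) in each mouse, by set of consecutive animal numbers (x axis), with SR in blue and MS in red. Lines are group means, bands the SD, and the open circle is A2, which is in neither. Serpinh1 lies at 26.1 to 35.4 CPM in 7 of the 8 MS mice and at 14.6 to 27.4 CPM in SR mice, while MS and SR values of the collagen chains overlap over most of their ranges.

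Choroid plexus RNA is given beside Serpinh1 because it differed so much between mice. C2 had the lowest choroid plexus sum of the MS mice (169 CPM), and the 4 SR mice D1, E1, F1 and G1 had sums of 174 to 236 CPM. Serpinh1 was 14.6 to 21.3 CPM in these 5 mice. A2, outside the comparison, also had little choroid plexus RNA (249 CPM) but 26.1 CPM of Serpinh1. In the other 15 mice the sum was 714 to 7057 CPM, and Serpinh1 was 26.1 to 35.4 CPM in the 7 from MS and 16.3 to 27.4 CPM in the 8 from SR. Of these 8, D2 and F2 had 16.3 and 17.0 CPM of Serpinh1, less than D1. The sums fall into separate clusters, with a gap seen in the data, so no correlation over all mice is given. The correlation was taken over these 15 mice alone, with group means removed. There r was 0.37 and rho 0.46 (permutation p = 0.236 and 0.109, 0.495 and 0.360 after Benjamini-Hochberg adjustment over 63 relations), and r was 0.46 without the 2 mice farthest from the median score. A fit over 20 mice with the choroid plexus score as a term draws a single slope across these clusters. In that fit the log2 fold change of Serpinh1 was 0.32 (SE 0.09). With a fibroblast score as a term it was 0.37 (SE 0.09), with a vascular score 0.46 (SE 0.12), and with each library's trend over transcript length, a term chosen after seeing the data, 0.49 (SE 0.13).

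**Figure D2:**
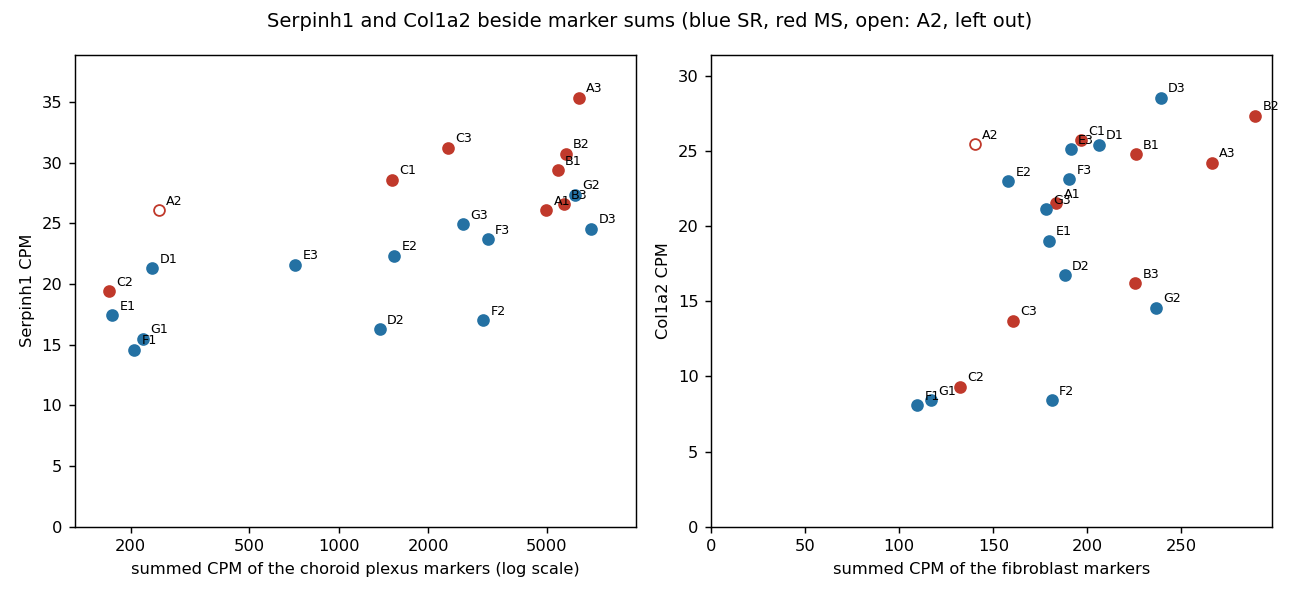
Left, Serpinh1 CPM against the summed CPM of 10 choroid plexus markers (log axis). Right, Col1a2 CPM against the summed CPM of 14 fibroblast markers. Each point is a mouse, with MS in red, SR in blue and A2 open. The 5 filled points at choroid plexus sums of 169 to 236 CPM have 14.6 to 21.3 CPM of Serpinh1, A2 at 249 CPM has 26.1 CPM, and the 4 mice with the least Col1a2 have 8.07 to 9.31 CPM.

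The prolyl 4-hydroxylase subunits differed less between the groups. P4hb, the shared disulfide isomerase subunit (ENSMUSG00000025130, chr11:120560298-120573253), had 86.2, 97.9 and 111 CPM as the lowest, median and highest MS values and 81.4, 87.3 and 97.4 CPM as the SR ones. In 5 of 8 MS mice P4hb exceeded every SR mouse, and the log2 fold change was 0.14 (SE 0.04), or 1.10-fold. P4ha1, the catalytic subunit with the higher level here (ENSMUSG00000019916, chr10:59323296-59373304), had 59.8, 65.1 and 89.9 CPM in MS and 51.4, 57.8 and 67.2 CPM in SR. All 8 MS mice lay above the SR median and 4 above the highest SR mouse. Its log2 fold change was 0.23 (SE 0.07), or 1.17-fold, and without the highest mouse, C3, it was 0.16. P4ha2, the other catalytic subunit (ENSMUSG00000018906, chr11:54100095-54131665), had 16.7, 20.1 and 23.6 CPM in MS and 16.3, 19.1 and 23.0 CPM in SR, with a log2 fold change of 0.08 (95% interval -0.06 to 0.23). The P4ha2 groups overlapped almost fully, with 1 of 8 MS mice above the highest SR mouse. With the choroid plexus score as a term, again a single slope across its clusters, the log2 fold changes of P4hb and P4ha1 were 0.10 (SE 0.04) and 0.24 (SE 0.08).

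The fibrillar chains varied widely within both groups and their group means were close. Col1a1, the chain present in 2 copies in the type I helix (ENSMUSG00000001506, chr11:94936224-94953042), had 8.06, 13.1 and 19.6 CPM in MS and 7.59, 13.4 and 19.5 CPM in SR. Col1a2, the other chain of that helix (ENSMUSG00000029661, chr6:4504814-4541544), had 9.31, 22.9 and 27.3 CPM in MS and 8.07, 20.1 and 28.5 CPM in SR. Col3a1, whose helix has 1 kind of chain (ENSMUSG00000026043, chr1:45311538-45349706), had 1.03, 3.13 and 4.94 CPM in MS and 1.25, 3.87 and 4.52 CPM in SR. The log2 fold changes were 0.04 (95% interval -0.37 to 0.44) for Col1a1, 0.14 (-0.41 to 0.69) for Col1a2 and -0.05 (-0.63 to 0.52) for Col3a1. These intervals are wide enough to hold a difference as large as that of Serpinh1 for Col1a2 and Col3a1, so none of the size seen for Serpinh1 was shown or shown to be absent in these chains. With A2 the log2 fold change of Col3a1 was 0.07.

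The group ranges of the fibrillar chains had nearly the same ends, and the low ends were made by few mice. Col1a2 was 8.07 to 9.31 CPM in F1, F2, G1 and C2, and at least 13.7 CPM in the other 16 mice. Summed over the 3 fibrillar chains, the level was 18.4 to 50.4 CPM in MS (median 39.4) and 16.9 to 49.0 CPM in SR (median 38.3). The log2 CPM of Serpinh1 minus the mean of the log2 CPM of these chains was 1.13 to 2.20 in MS (median 1.55). In SR it was 0.73 to 1.90 (median 1.16), so the ranges overlapped.

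The type IV chains differed little between the groups, with narrow intervals. Col4a1 (ENSMUSG00000031502, chr8:11198423-11312826, minus strand) had 69.1, 77.0 and 93.8 CPM in MS and 70.3, 85.5 and 97.1 CPM in SR, with a log2 fold change of -0.08 (95% interval -0.21 to 0.04). Col4a2 (ENSMUSG00000031503, chr8:11312805-11449287, plus strand) had 88.7, 111 and 141 CPM in MS and 96.4, 118 and 133 CPM in SR, with a log2 fold change of -0.02 (-0.18 to 0.14). Neither interval reached the 0.47 of Serpinh1. The first exons of the 2 genes overlap by 22 bases and Col4a2 shares 43 exon bases with an antisense gene, Gm15419, which had at most 5 counts in a library. The strand setting used in counting is not given in the sources used here.

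**Figure D3:**
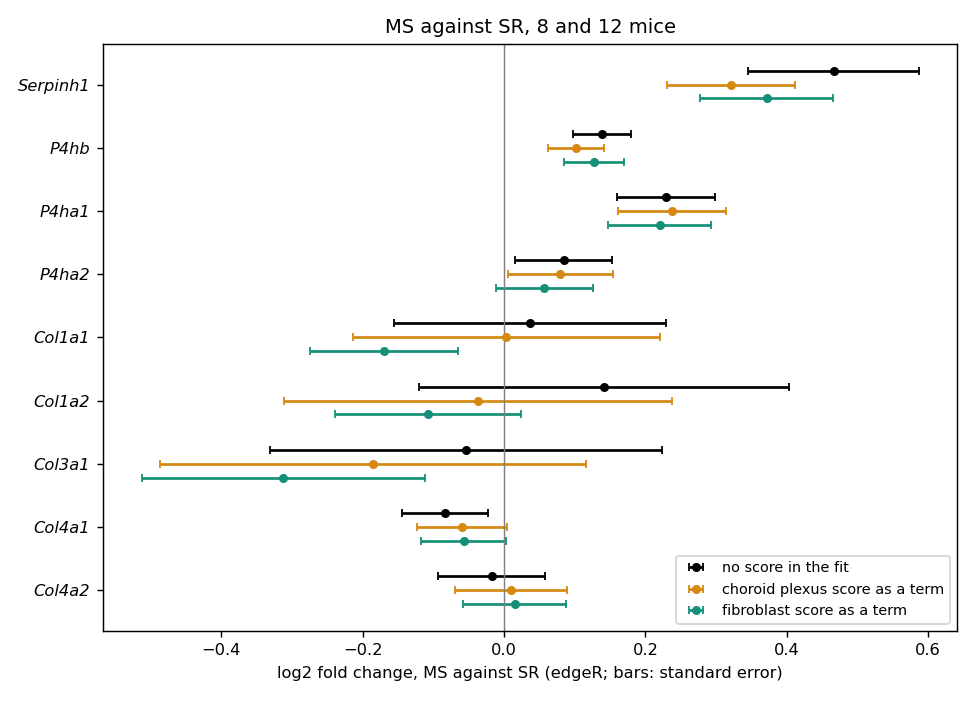
Log2 fold change, MS against SR (x axis), of the 9 members in the edgeR fit over 20 mice, with no score (black), with the choroid plexus score (orange) and with the fibroblast score (green) as a term. Bars are standard errors. Serpinh1 is at 0.47, 0.32 and 0.37 in the 3 fits, and the fibrillar chains have the widest bars.

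Over the members, 6 had a positive and 3 a negative log2 fold change, with a median of 0.08 where the median of all genes tested was 0.00084. Serpinh1 and the 3 hydroxylase subunits had a median of 0.18, and the 5 collagen chains one of -0.02. At an adjusted p under 0.05, edgeR called 0 of the 9 members and 0.011% of all genes tested. Without MS mouse C2 edgeR called 1, Serpinh1, in a fit that called 109 of 18266 genes. DESeq2 called 1 member, also Serpinh1, and 0.775% of the 15351 genes to which it gave an adjusted p. At an unadjusted p under 0.05 in edgeR, 3 members (Serpinh1, P4hb and P4ha1) were higher in MS, as were 6.62% of all genes, and 0 were lower, against 4.92% of all genes. MS and SR values were without overlap for 0 members and for 0.011% of all genes. Serpinh1 was taken from this contrast, so nothing is read from these counts.

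Mouse-to-mouse variation within rearing groups was not used to choose the members, and it split them into blocks. In SR mice the coefficient of variation was 28.8% for Col1a1, 39.1% for Col1a2 and 39.6% for Col3a1. It was 20.6% for Serpinh1 and between 5.50% (P4hb) and 10.7% (Col4a2) for the other 5. Over the 20 mice with group means removed, Col1a1 and Col1a2 had r = 0.91 and rho = 0.88, and Col1a2 and Col3a1 had r = 0.89 and rho = 0.80. The type IV pair, Col4a1 and Col4a2, had r = 0.92 and rho = 0.92. Among the 63 relations computed, the adjusted permutation p of r was 0.000157 for each of these 3, from an unadjusted 1e-05, the smallest that the 100000 draws can give. For rho the adjusted values were 0.000315, 0.00063 and 0.00021, and without the 2 mice farthest from the median r was 0.88, 0.83 and 0.93.

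Serpinh1 varied between mice together with Col3a1, Col1a2 and P4hb. With Col3a1 it had r = 0.76 and rho = 0.64 (adjusted permutation p = 0.00323 and 0.0318), with Col1a2 r = 0.70 and rho = 0.57 (0.00731 and 0.0802), and with P4hb r = 0.62 and rho = 0.62 (0.0249 and 0.0318). The 3 values of r were 0.61, 0.54 and 0.50 without the 2 mice farthest from the median of Serpinh1. With Col1a1 it had r = 0.50 and rho = 0.44 (0.140 and 0.229), and r was 0.28 without those 2 mice, so that relation rests on them. With Col4a1 and Col4a2, r was -0.08 and 0.02 and rho 0.05 and 0.13 (adjusted permutation p of 0.824 or more), and r was 0.29 and 0.41 without the same 2 mice, C2 and F1, so the low values for the type IV chains rest on them too. The difference between these correlations was not tested. The catalytic subunits P4ha1 and P4ha2 had r = 0.53 and rho = 0.60 (0.121 and 0.0510), and r was 0.49 without the 2 farthest mice.

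**Figure D4:**
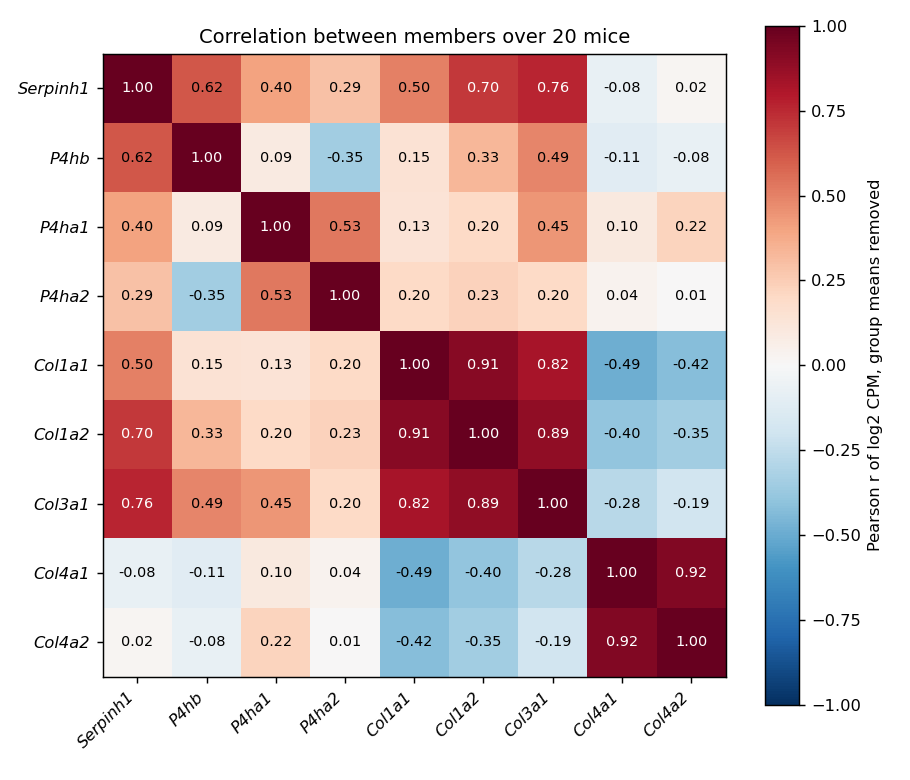
Pearson r between members (log2 CPM, group means removed) over 20 mice, from -1 in blue to 1 in red. The fibrillar chains form a block of 0.82 to 0.91, the type IV pair stands at 0.92, and Serpinh1 is at 0.50 to 0.76 with the fibrillar chains.

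The fibrillar chains also followed the fibroblast markers, a list of 14 genes such as Dcn, Lum and Ogn that holds no member. With the mean log2 CPM of that list, Col1a2 had r = 0.88 and rho = 0.85, Col1a1 r = 0.85 and rho = 0.86, and Col3a1 r = 0.75 and rho = 0.67, with adjusted permutation p between 0.000157 and 0.0212. Serpinh1 had r = 0.68 and rho = 0.53 (adjusted permutation p = 0.00644 and 0.0987). These relations were taken over 20 mice, and that of Serpinh1 with the choroid plexus score over 15, so they are not directly comparable. Without the 2 mice farthest from the median score, r was 0.82, 0.83, 0.67 and 0.52 for Col1a2, Col1a1, Col3a1 and Serpinh1. Those mice, F1 and G1, also had low choroid plexus sums (206 and 220 CPM). The list was summed to 132 to 289 CPM in MS (median 211) and 110 to 239 CPM in SR (median 185), with all 14 genes above 0 in some library and a median log2 fold change of 0.07 (10 of 14 higher). The sum leans on Igfbp2, its most abundant gene, with 69.2 ± 31.5 CPM in MS and 42.3 ± 29.1 in SR. The list's largest log2 fold changes, named after their values were seen, were those of Igf2 (0.76, SE 0.40) and Igfbp2 (0.70, SE 0.39). With the fibroblast score as a term, the log2 fold changes became -0.17 (SE 0.10) for Col1a1, -0.11 (SE 0.13) for Col1a2 and -0.31 (SE 0.20) for Col3a1. The type IV chains had r = -0.38 and -0.39 with the fibroblast score (adjusted permutation p = 0.328 and 0.308), and -0.20 and -0.28 without those 2 mice. With the trend over transcript length of each library, Col4a1 had r = -0.36 and rho = -0.52 (adjusted permutation p = 0.359 and 0.121), and r was -0.47 without the 2 farthest mice. The part of these scores in the group differences of the fibrillar chains was not tested further.

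The genes most like 3 of the members over the 20 mice, by Pearson r of log2 CPM with group means removed, differed between blocks. For Serpinh1 they were Tmem123, Thbs1 (thrombospondin 1, a matrix glycoprotein), Sod3 (extracellular superoxide dismutase), Hspb8 (a small heat shock protein) and Slc26a7 (an anion transporter), with r of 0.82 to 0.83. For Col1a2 they were Mrc2 (a collagen uptake receptor), Alx4 and Foxc2 (transcription factors), Uaca and Ogn (osteoglycin), with r of 0.88 to 0.94. For Col4a1 they were Chrd (chordin, an antagonist of bone morphogenetic proteins), Adam11, Lsm11, Mpp3 and Tnks1bp1, with r of 0.88 to 0.91. They were picked as the highest of all tested genes and carry no p.

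Differences among the sets of consecutive animal numbers within a rearing group were tested, since they do not enter the MS against SR contrast. Among the 4 SR sets, edgeR called 0 of the 9 members and 0.0165% of all genes, and 0 members against 5.8% of genes had an unadjusted p under 0.05. The lowest adjusted p was 0.883, for Col1a1, whose set means ran from 9.68 ± 3.53 CPM in set F to 15.3 ± 3.68 CPM in set D (SD, n = 3 each; edgeR). Among the 3 MS sets, edgeR called 0 members and 0% of all genes. At an unadjusted p under 0.05 it held 1 member, Col4a2, beside 11.4% of all genes. Col4a2 averaged 128 ± 15.4 CPM in set C, 113 ± 9.97 in set A (n = 2) and 101 ± 11.6 in set B, with edgeR's p of 0.0306 and an adjusted p of 0.403. Serpinh1 set means were 30.7, 28.9 and 26.4 CPM in MS sets A (n = 2), B and C and 18.5 to 22.6 CPM in SR sets. Serpinh1 was chosen for its group difference, so the order of its MS and SR set means is a description and carries no test. Without the filter on low counts, edgeR called 3 members (Col1a1, Col1a2 and Col3a1) among the SR sets, with 1059 of 39023 genes, and 2 (Col1a2 and Col4a2) among the MS sets, with 1460 genes.

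Animal numbers fall into a low range (sets A, B, D, E and F) and a high range (sets C and G). The log2 fold change of Serpinh1 was 0.58 (SE 0.12) within the low range and 0.22 (SE 0.25) within the high range, where 3 MS and 3 SR mice were compared. The difference of the effects, high minus low, was -0.36 (SE 0.26) on the log2 scale, with an adjusted p of 0.726 in edgeR. For the other 8 members the difference lay between -0.07 and 0.15, and edgeR called 0 members and 0% of all genes for it, with 0 members and 8.67% of all genes at an unadjusted p under 0.05.

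Of 37 other genes of collagen modification, export and maturation, edgeR called 0 of the 36 tested (DESeq2 0). At an unadjusted p under 0.05, 0 were higher and 3 lower in MS, beside 6.62% and 4.92% of all genes. The median log2 fold change of the list was 0.05, with 23 higher and 13 lower. The lysyl hydroxylases Plod1, Plod2 and Plod3 had log2 fold changes of 0.10 (SE 0.07), -0.10 (SE 0.08) and 0.05 (SE 0.04). The prolyl 3-hydroxylase complex, in which P3h1, Crtap and the cyclophilin Ppib act together, had -0.02 (SE 0.06), 0.24 (SE 0.14) and -0.06 (SE 0.04), and the ER prolyl isomerase Fkbp10 had -0.06 (SE 0.08). The 3 genes at the unadjusted threshold were the collagen galactosyltransferases Colgalt1 (54.8 ± 4.53 CPM in MS, 61.1 ± 3.81 in SR, log2 fold change -0.16, SE 0.05) and Colgalt2 (-0.16, SE 0.07, named after its values were seen), and Mia3 (-0.08, SE 0.03), which loads procollagen into carriers leaving the ER. Without MS mouse C3, edgeR called 1 gene of the list, Colgalt1, in a fit that called 109 of 18280 genes. Outside the cell, the procollagen proteinase Bmp1 had -0.09 (SE 0.07), its enhancer Pcolce 0.45 (SE 0.36) and the matrix glycoprotein Sparc 0.11 (SE 0.06). Lox, which starts collagen crosslinking, had 1 to 21 counts and was not tested.

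Of 27 further collagen chains, edgeR called 0 (DESeq2 0). Their median log2 fold change was 0.12, 17 being higher and 10 lower. At an unadjusted p under 0.05, 2 were higher and 0 lower, beside 6.62% and 4.92% of all genes. Those 2 were Col9a1 and Col18a1, a basement membrane collagen at 10.2 ± 3.54 CPM in MS and 7.21 ± 2.62 in SR (log2 fold change 0.50, SE 0.21). Col5a1, a fibril-nucleating chain, had -0.16 (SE 0.28) and Col6a1, a beaded filament chain, -0.14 (SE 0.17). The largest log2 fold changes of the list, named after their values were seen, were those of Col8a1 (0.88, SE 0.63) and Col8a2 (0.83, SE 0.56), which did not reach the unadjusted threshold. Among 10 laminin, nidogen and proteoglycan partners of type IV collagen, the median log2 fold change was 0.07, edgeR and DESeq2 called 0 and 0 had an unadjusted p under 0.05. The mural and endothelial marker lists had median log2 fold changes of -0.04 and 0.04, with 0 genes at an unadjusted p under 0.05 in edgeR and 0 called by either tool.

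Other ER chaperones were higher in MS mice on average too, in the same fit. The log2 fold changes of 15 ER chaperones and disulfide isomerases ran from 0.0051 to 0.48, with a median of 0.22. Of these edgeR called 0, while 12 were higher at an unadjusted p under 0.05, beside 6.62% of all genes. DESeq2 called 5, and 0.775% of all genes to which it gave an adjusted p. Hspa5, the main ER Hsp70, had 345 ± 69.0 CPM in MS and 262 ± 48.8 in SR (0.40, SE 0.11), Hsp90b1, the ER Hsp90, 0.20 (SE 0.05), and the disulfide isomerase Pdia4 0.35 (SE 0.10). A list of 12 heat shock genes, cytosolic but for the mitochondrial Hspd1 and Hspe1, had a median of 0.15. Their log2 fold changes ran from 0.0016 to 0.54, and edgeR called 0. At an unadjusted p under 0.05, 8 were higher in MS, beside the same 6.62% of all genes. DESeq2 called 2 (Hsph1 and Hspe1, named after their values were seen). Results of these data were known when both lists were chosen, so their direction is not independent evidence.

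**Figure D5:**
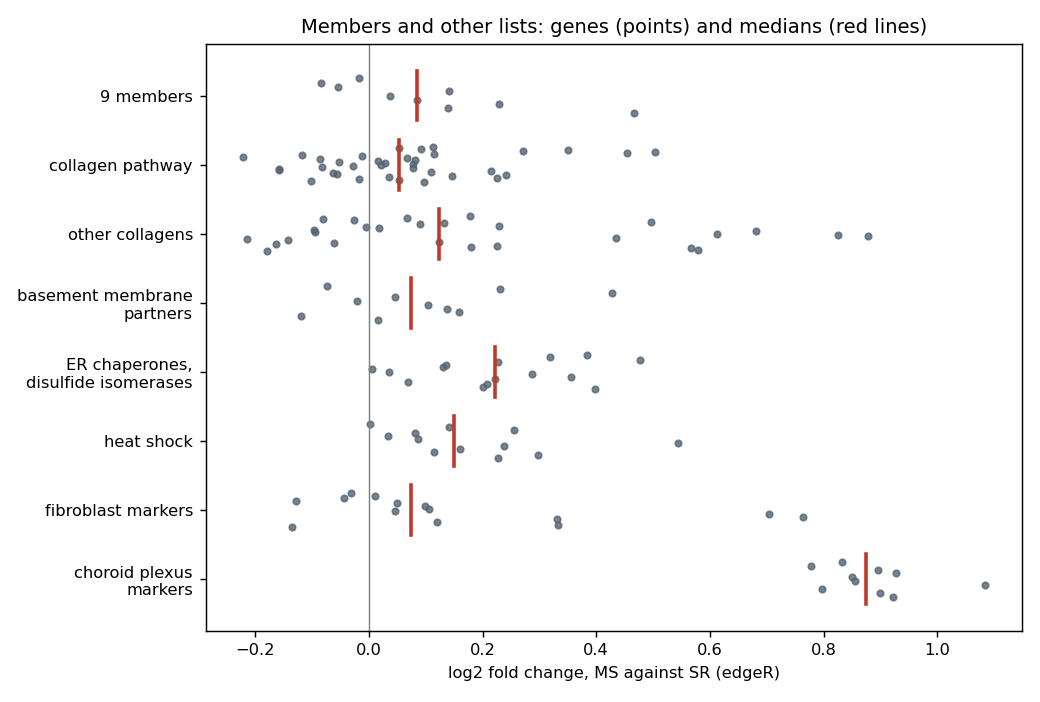
Log2 fold change, MS against SR (x axis, edgeR over 20 mice), of each tested gene (points) in the members and 7 other lists, with list medians as red lines. Medians are 0.08 for the members, 0.05 for the collagen pathway, 0.22 for ER chaperones and 0.88 for the choroid plexus markers.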

How the data were processed

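The authors aligned paired-end reads of poly-A libraries to GRCm38 with STAR 2.7.3a, counted them per Ensembl gene with featureCounts and deposited raw counts, not normalised and not filtered. The kit marks strand; the counting's strand setting is not given in the sources used here. Symbols and positions are from GENCODE M21 (55227 of 55487 genes matched). Samples were grouped by the treatment in the labels, and A2 was left out. Counts were filtered with filterByExpr (minimum count 10), normalised by TMM and tested with edgeR 4.0.16's quasi-likelihood test (R 4.3.3), with Benjamini-Hochberg adjustment over all genes tested and a threshold of 0.05. An SE is the log2 fold change divided by the root of F. Log2 CPM used a prior count of 2, and a score is the mean log2 CPM of a marker list. Correlations over mice were tested with 100000 permutations within rearing groups, two-sided.

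The members and lists were chosen with earlier results of these data known. Genes named are the members, pathway genes picked by role, and the 5 genes most correlated with Serpinh1, Col1a2 and Col4a1. Alternatives were all 21 libraries, DESeq2 1.42.0, other filters and size factors, the number range or a marker score as a term, a random block of sets (limma 3.58.1), sums within sets, and each mouse or set left out. The scripts were tested on simulated data. No library of a group repeated another: every pair differed by more than counting error (chi-square divided by its degrees of freedom, at least 3.58). Library totals limit the precision most for Col3a1, with 24 to 110 counts. P-values measure the spread between mice, and mice of a nest may not be independent.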

Additional observations from a re-analysis of the deposited data

Results flagged for a closer look

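MS mouse A2, which is outside the comparisons, lay above the highest SR mouse for 3 of the 9 members when all 21 libraries were normalised together. It had 77.6 CPM of P4ha1, where the highest SR mouse had 67.2 CPM. P4ha2 was at 26.6 CPM in A2 and at most 23.0 CPM in SR mice. Col3a1 was at 5.34 CPM in A2 and at most 4.52 CPM in SR mice. Beside these values, A2 had 2023 CPM summed over the striatal markers, and its sums of mural and endothelial markers were 348 and 463 CPM, above the 208 to 281 and 273 to 391 CPM of the other mice. The part of these in the 3 values was not tested.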

How the results depend on the processing

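Serpinh1, P4hb, P4ha1, P4ha2 and Col4a1 had the same sign in all 41 alternatives, and Serpinh1 lay between 0.22 and 0.58. No member was called by edgeR over the 20 mice, and 1 (Serpinh1) was under DESeq2, within the low number range, and without MS mouse C2 (0 to 1 over mice left out). Those fits called 119 of 15351, 230 of 18395 and 109 of 18266 genes, where edgeR over the 20 mice called 2 of 18146. The pathway list had 1 gene called (Colgalt1) within the low range and without set C, and 0 to 1 over mice left out (1 without C3). Without set C edgeR called 340 of 18561 genes, and without C3 it called 109 of 18280. The members' median was 0.0073 without set F. Among SR sets, 3 members (Col1a1, Col1a2, Col3a1), and among MS sets, 2 (Col1a2, Col4a2), were called when low counts were not filtered, a fit that called 1059 and 1460 genes, and the cause was not tested. Signs changed for 4 collagen chains. Col3a1 was 0.067 with all 21 libraries, 0.011 without set B, 0.0051 without set C and 0.12 without set E. Col1a1 was -0.17 with the fibroblast score, -0.059 without set B, -0.075 without set F and -0.046 without set G. Col1a2 was -0.11 with the fibroblast and -0.037 with the choroid plexus score. Col4a2 was 0.015 with the fibroblast and 0.0096 with the choroid plexus score, 0.076 without set B, 0.023 without set G and 0.024 within the high range. With single mice left out, Col1a1 ran from -0.074 to 0.11, Col3a1 from -0.19 to 0.081 and Col4a2 from -0.066 to 0.026. No paired analysis was possible because MS and SR mice share no replicate number. Leaving out 1 library changed no other call.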
